A study of Mus musculus with 6 samples.

Results

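Microglia watch their surroundings through receptors for extracellular nucleotides and for neuronal ligands, and 8 genes of this kind are described here: the nucleotide receptor genes P2ry12, P2ry13, P2ry6, P2rx4 and P2rx7, the ectonucleotidase gene Entpd1, the lysophospholipid receptor gene Gpr34 and the fractalkine receptor gene Cx3cr1. Their peaks were those of 2 ATAC-seq peak lists whose midpoint was nearest an end of one of these genes among protein-coding genes, within 100 kb, or lay inside its span. The rule found 18 of the 12105 listed peaks, of which 14 were cKO-specific and 4 cWT-specific. The clause on gene spans added 0 peaks to those found by the nearest end.

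The libraries came from microglia sorted from brains of C57BL/6J mice, 8 weeks old by the labels, at roughly 50000 cells each. ATAC-seq reads open chromatin as sites where the Tn5 transposase can insert adapters. The cKO mice (Mir137loxP/loxP;Tmem119-CreERT2, 3 libraries) carried floxed Mir137, and the cWT mice (Mir137+/+;Tmem119-CreERT2, 3 libraries) intact Mir137. All animals of both genotypes carried the recombinase allele, which is driven from the microglial gene Tmem119 and activated by tamoxifen, and all received tamoxifen on 7 days, starting between 7 and 8 weeks of age. The series gives n = 4 mice and does not say which animal gave which library. The submitters named each list as specific to 1 genotype, and how the libraries of that genotype were combined is not stated. No value per library was used here, so replicate spread is not known, the depth is unknown, and intervals and p-values cover counting error between the lists only. In bulk chromatin a change in the mix of cells and a change in accessibility per cell cannot be told apart. Of 8 microglial marker genes, 6 had a cKO-specific and 1 a cWT-specific peak, beside 23.8% and 12.3% of all protein-coding genes. For marker genes of neurons these counts were 1 and 1 of 5, for astrocytes 3 and 0 of 4, for oligodendrocytes 1 and 0 of 4, for other macrophages 2 and 2 of 4, and for lymphocytes 0 and 0 of 3. The part of these cells in the results was not tested.

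ATP and ADP released by active or damaged cells act on 2 kinds of receptor. P2X receptors are ion channels that ATP opens, and P2Y receptors are G protein-coupled receptors, among which P2Y12 and P2Y13 respond to ADP and P2Y6 to UDP. CD39, the product of Entpd1, stands at the head of the pathway that clears these signals by removing phosphates from ATP and ADP. In microglia P2Y12 steers processes towards a source of nucleotide, P2Y6 is tied to phagocytosis, and P2X7 to the release of interleukin-1. Several of these genes, with Gpr34 and Cx3cr1, are used as markers of resting microglia.

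The microRNA of the gene floxed in cKO mice is miR-137, whose seed (bases 2 to 8, in capitals) pairs with its targets. Its loss from the sorted cells was not measured here. The sequence is shown because the match to this seed was searched for in the promoters of the genes described here. The transcripts of these genes were not searched, so the search does not address whether they are targets. The mature sequence is from the RefSeq table (GRCm38.p6, chromosome 3, 118433901 to 118433923, plus strand).

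mmu-miR-137-3p: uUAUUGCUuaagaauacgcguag

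The P2ry12 promoter is shown because a cKO-specific peak lay 439 bp from it, closer than any listed peak lay to the promoter window of another of these genes. The window runs from 250 bases before to 50 after the annotated start (RefSeq, GRCm38.p6, chr3:59262936-59263235, minus strand, written along the gene). Capitals mark GTCTG, which is CAGAC on the opposite strand, a core of SMAD sites, and GGAAGT, a core of ETS sites such as that of PU.1.

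P2ry12 promoter: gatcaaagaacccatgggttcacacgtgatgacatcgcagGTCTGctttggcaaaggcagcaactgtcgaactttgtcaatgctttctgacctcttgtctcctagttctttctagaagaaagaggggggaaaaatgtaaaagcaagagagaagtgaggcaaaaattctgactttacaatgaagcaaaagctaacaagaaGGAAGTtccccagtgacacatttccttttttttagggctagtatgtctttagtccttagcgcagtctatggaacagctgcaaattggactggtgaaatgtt

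In this window GGAAGT began 51 bases before the start and GTCTG 210 bases before it, and the matches did not overlap. On either strand, 23.8% of all 32851 promoter windows of the table held GGAAGT and 49.6% held CAGAC. The other letters searched were not in this window: TGANTCA (AP-1, in 7.81% of all windows), TGTGGT (RUNX, 16.8%), TGACGTCA (CRE, 1.79%), an IRF element of GAAA, 2 bases of any kind and GAAA (3.44%), and the matches to the seeds of both miR-137 arms, AGCAATA (2.16%) and ATACCCG (0.521%). Windows were matched for 6 of the 8 genes, with 2 annotated starts each at Entpd1 and P2rx7 and 8 windows in all. The 2 genes with no window in the table were P2ry6 and Gpr34. GGAAGT was in 3 of the 8 windows, CAGAC in 7, TGTGGT in 3, TGANTCA in 1, and the IRF, CRE and seed letters in 0. The IRF, CRE and seed letters are rare in all windows, so no conclusion is drawn from their absence in 8. The GC content of the 8 windows ran from 42.3% at P2ry12 and P2ry13 to 64.0% at the Entpd1 start of lower coordinate, with a median of 52.7% over all windows of the table. No listed peak of these genes overlapped a promoter window of any gene in the table.

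Specific peaks were spread unevenly over the 8 genes. The counts of the cKO list and then the cWT list were 4 and 1 at Entpd1, 3 and 2 at P2ry12, and 4 and 0 at Gpr34. P2ry6 had 2 cKO-specific and 0 cWT-specific peaks, P2ry13 had 1 and 0, and P2rx4 had 0 and 1. P2rx7 and Cx3cr1 had no peak in either list. P2Y receptor genes thus held 6 of the 14 cKO-specific and 2 of the 4 cWT-specific peaks, and the ATP-gated channel genes 0 and 1. These counts rest on few genes and are not read as a difference between the kinds of receptor.

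**Figure D1:**
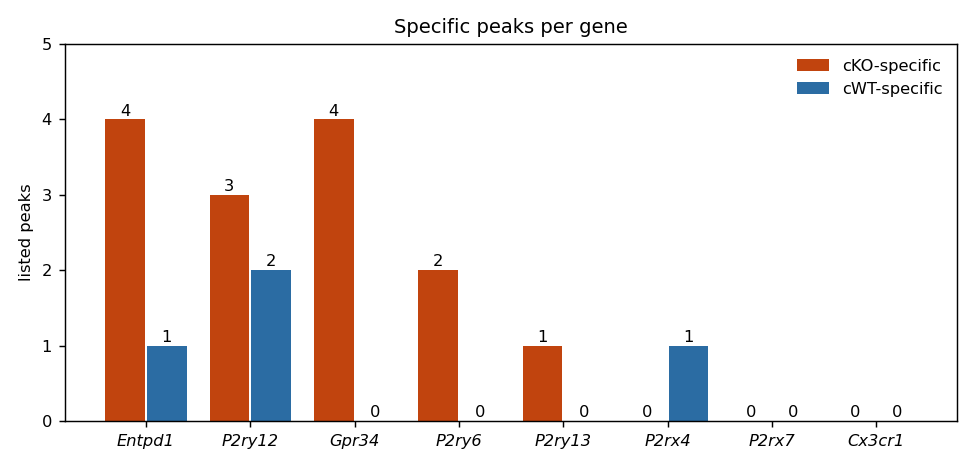
Number of listed peaks (vertical axis) of each gene, cKO-specific on the left of each pair and cWT-specific on the right. Entpd1, P2ry12 and Gpr34 have 4 or 5 peaks each, and P2rx7 and Cx3cr1 have 0.

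Of the 8 genes, 5 had at least 1 cKO-specific peak (62.5%), beside 23.8% of the 21887 protein-coding genes under the same rule. At least 1 cWT-specific peak was counted for 3 of the 8 (37.5%), beside 12.3% of coding genes. A gene's territory comprises all positions that the rule would count for it, and it ran from 12.05 kb at P2ry13 to 133 kb at Entpd1. Among the 15310 coding genes with territories in that range, 22.3% had a cKO-specific peak and 9.97% a cWT-specific one. Per 100 kb of territory the 8 genes held 2.72 cKO-specific and 0.776 cWT-specific peaks, beside 0.437 and 0.176 summed over all coding genes. Whether a coding gene is open in microglia was not considered and the unlisted peaks were not used, so these shares do not separate genotype-specific chromatin from microglial chromatin in general. The genes were also chosen with results of these lists known.

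**Figure D2:**
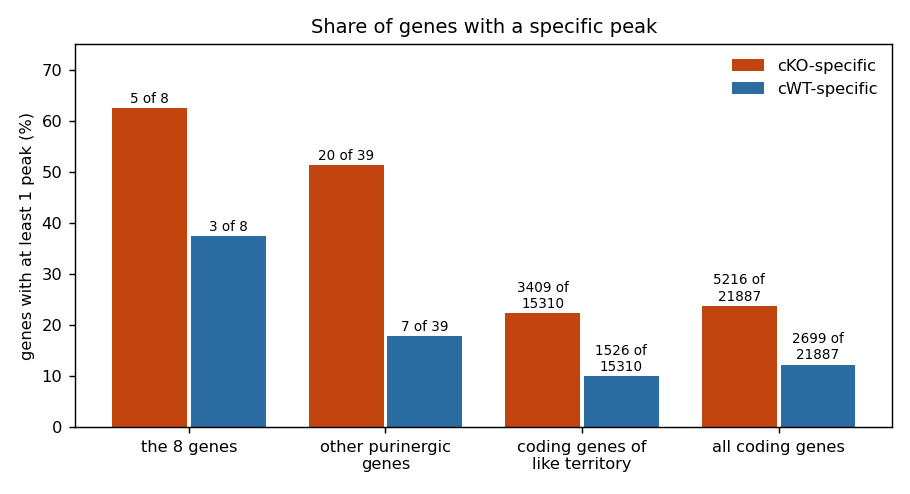
Percent of genes with at least 1 listed peak (vertical axis), cKO-specific on the left of each pair and cWT-specific on the right, with the number of genes above each bar. Coding genes of like territory have a territory between 12.05 and 133 kb. The bars of the 8 genes stand at 62.5% and 37.5%, and those of all coding genes at 23.8% and 12.3%.

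The cKO share of the 18 peaks was 77.8% (exact 95% interval 52.4 to 93.6%), and that of all listed peaks was 71.2% (70.4 to 72.0%), which lies inside the first interval. The balance of single genes was tested over the 271 coding genes with at least 5 assigned peaks, by an exact two-sided binomial test against the cKO share of the remaining assigned peaks, with Benjamini-Hochberg adjustment. It called 0 of 271 genes (0%), and 6 had an unadjusted p under 0.05, and P2ry12 and Entpd1 were not among those. The cKO share was 60.0% at P2ry12 (exact interval 14.7 to 94.7%, exact p = 0.626, adjusted p = 1) and 80.0% at Entpd1 (28.4 to 99.5%, exact p = 1, adjusted p = 1). Even 5 cKO-specific peaks of 5 would give an exact p of 0.331, so the test could not call a gene with so few peaks on the cKO side. On the cWT side, 0 cKO-specific peaks of 5 would give an exact p of 0.00181 before adjustment over the 271 genes. With only 6 genes under 0.05 before adjustment, such a value would not have passed it. A gene with 5 peaks could therefore not be called on either side. The results at P2ry12 and Entpd1 therefore do not show that their balance matches that of other genes. The remaining 6 genes had too few peaks to be tested.

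At P2ry12, the ADP receptor gene and a much used microglial marker, peaks of both lists were found (chromosome 3, gene at 59216271 to 59262985). The cKO-specific peak at 59263675 to 59264308 was 634 bp wide, the widest of the 18, and its midpoint lay 1006 bp upstream of the annotated start. Its signal, as the authors deposited it, was 13.3, below the cKO list's median of 16.5, while its score of 206 was higher than that of 95.1% of the list (p-value 0.319). At the other end of the gene, cKO-specific peaks at 59218046 to 59218299 (signal 8.87, p-value 0.901) and 59219951 to 59220265 (12.6, 0.820) lay 1.65 kb apart inside it. The cWT-specific peaks were at 59225294 to 59225713 (signal 8.38, p-value 0.842) and 59249023 to 59249294 (10.9, 0.877). Both cWT-specific peaks lay inside the gene, between the inner cKO-specific peaks and the one before the start. The closest approach of the lists was 5.03 kb. Each list was named as specific to its genotype, so nothing is read from the lack of overlap.

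P2ry13, a second ADP receptor gene (59207892 to 59210882), lies 5389 bp from P2ry12. Its cKO-specific peak, 59205203 to 59205606, had a signal of 13.6 and a p-value of 0.772, and its midpoint lay 2487 bp beyond the end of the gene away from its start. Both receptor genes sit inside the span of Med12l, a gene of a Mediator subunit family (59005419 to 59318446). The 4 cKO-specific and 2 cWT-specific peaks of P2ry12 and P2ry13 lay inside this span. Igsf10, the next coding gene beyond P2ry12, had 1 cKO-specific peak and 0 of the cWT list. Peaks at P2ry12 and P2ry13 thus also lie in Med12l, whose introns and exons the gene table used here does not separate.

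**Figure D3:**
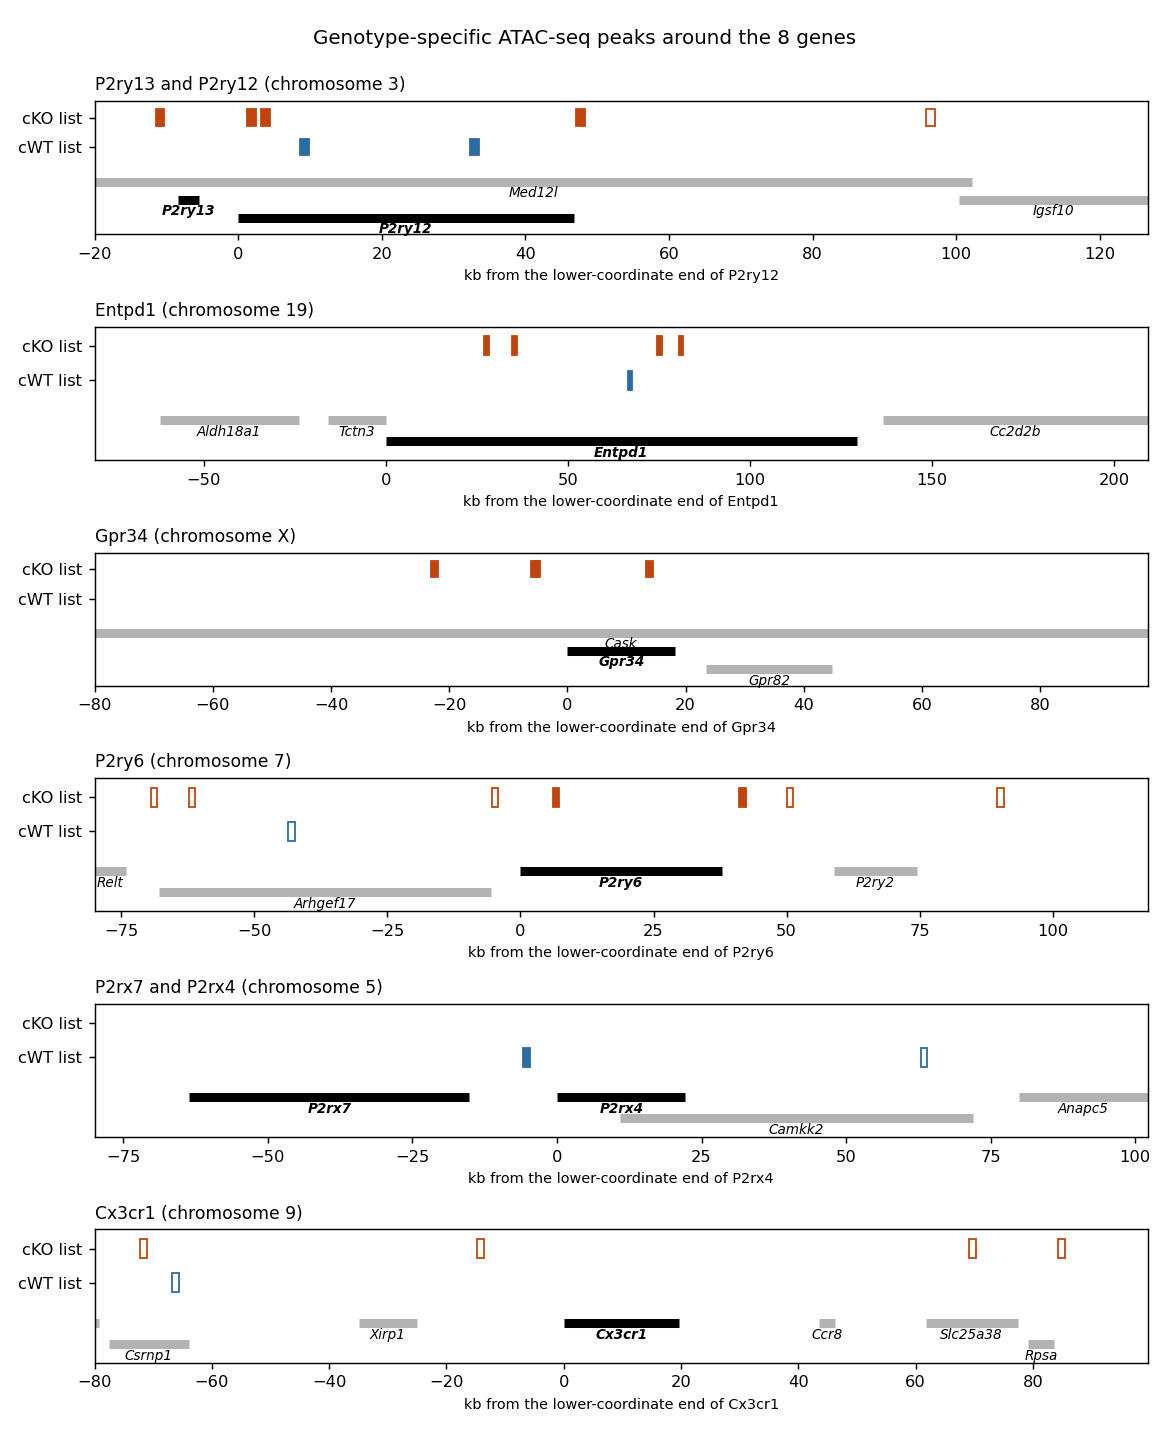
Listed peaks (boxes, cKO list above and cWT list below, centred on each midpoint and drawn at a fixed width) and coding genes (bars, the 8 genes in black) against distance in kb from the lower-coordinate end of the gene named on each axis. Filled boxes are peaks of the 8 genes and open boxes those nearest to other genes; the adjoining Gpr34 peaks merge into 1 box. The first panel starts closer to its gene than the others. Both lists have filled boxes at P2ry12 and Entpd1, and no box overlies Cx3cr1 or P2rx7.

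P2ry6, the UDP receptor gene (chromosome 7, 100937630 to 100975498), had the strongest cKO-specific peak of the set by both of the authors' measures. It lay inside the gene at 100944055 to 100944646, 592 bp wide, with a signal of 29.2 that exceeded 93.0% of the cKO list. Its score of 358 exceeded 98.7% of the list, at a p-value of 0.137 and an adjusted p of 0.847. It was the 1 primary peak among the 18, a class that makes up 2.82% of the cKO list. The other cKO-specific peak, 100979261 to 100979474, was intergenic, with its midpoint 3869 bp beyond the gene (signal 16.9, p-value 0.847). The neighbouring receptor gene P2ry2, which responds to ATP and UTP, had 2 cKO-specific and 0 cWT-specific peaks, and Arhgef17, a guanine nucleotide exchange factor gene on the other side, had 3 and 1. The nearest cWT-specific peak to P2ry6 was 42.8 kb from the gene and was assigned to Arhgef17.

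P2rx4 and P2rx7, ATP-gated channel genes that lie 15182 bp apart on chromosome 5, had 1 listed peak between them. It was cWT-specific, at 122702178 to 122702446, between the genes, its midpoint 5206 bp before the P2rx4 end that holds its start (gene at 122707518 to 122729739). Its signal was 15.5, above that of 59.1% of the cWT list, and its p-value 0.820. P2rx7 (122643927 to 122692336) ended 9842 bp from this peak, which was counted for P2rx4 as the nearer gene. On the cKO side the listed peaks that flank this pair of genes were 16.4 kb from P2rx7 on its side, assigned to Ift81, and 81.7 kb from P2rx4 on the other side, assigned to Anapc5. The numbers in the peak names rise along each chromosome in both lists and were read as places in each genotype's full set of called peaks. Between those 2 flanking peaks 8 numbered cKO peaks were not in the list. Camkk2, a kinase gene that overlaps P2rx4, had a single peak, from the cWT list.

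Entpd1, the CD39 gene, carried its 5 peaks inside the gene (chromosome 19, 40612366 to 40741602), all far from its ends. The cKO-specific peaks formed a pair in each part of the gene: 40639823 to 40640193 (signal 11.1, p-value 0.846) and 40647491 to 40647808 (15.5, 0.844) lay between its annotated starts. The pair at 40687267 to 40687712 (8.05, 0.944) and 40693104 to 40693657 (23.8, 0.436) lay 27.7 and 33.6 kb downstream of the inner start. The cWT-specific peak, 40679273 to 40679493, lay between these pairs, 19.6 kb downstream of the inner start and 7.77 kb from the nearest cKO-specific peak. It was the strongest cWT-specific peak of the set, with a signal of 27.8 above 94.1% of the cWT list, a score of 223 above 98.1% and a p-value of 0.290. The nearest cKO-specific peak stood at the low end of its list, with a signal above only 3.95% of cKO peaks. Neither coding neighbour, Tctn3 or Cc2d2b, had a listed peak.

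Gpr34, the gene of a receptor for lysophosphatidylserine (chromosome X, 13622650 to 13640859), was the gene with the most cKO-specific peaks and no cWT-specific one. The peak inside the gene, 13636287 to 13636723, had a signal of 14.5 and a p-value of 0.616. The remaining 3, at 13599984 to 13600214 (signal 18.3, p-value 0.741), 13616862 to 13617203 (20.2, 0.849) and 13617204 to 13617510 (20.2, 0.915), lay outside Gpr34 but inside Cask, a scaffold kinase gene that spans the locus. The last 2 adjoin with a gap of 0 bp and the same signal, and counted as 1 region they leave 3 peaks. At least 4 cKO-specific and no cWT-specific peak occurred at 146 of all coding genes (0.667%). Among the genes set out here Gpr34 was the only one in that class, and it had 3 such peaks, and so left the class, with a limit of 10 kb, with assignment among all annotated genes and with joined peaks. The nearest cWT-specific peak was 116 kb from the gene, nearest to an end of Cask, and the coding neighbours of Gpr34, the orphan receptor gene Gpr82 and Nyx, had 0 peaks. With 4 peaks Gpr34 fell under the minimum of the balance test. With a minimum of 3 peaks its exact binomial p was 0.583 (adjusted p = 1). All 4 peaks being cKO-specific is already the most extreme outcome on that side, so the test could not call Gpr34 there.

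Cx3cr1, the receptor gene for the neuronal chemokine fractalkine (chromosome 9, 120048683 to 120068296), had no listed peak, although it is among the strongest markers of microglia. The nearest cKO-specific peaks lay 13.9 kb from one side of the gene (120034370 to 120034778, signal 17.0, p-value 0.458) and 49.9 kb from the other (120118209 to 120118538, 17.7, 0.654). The first was nearest to Xirp1 and the second to Slc25a38. Ccr8, a chemokine receptor gene and the next coding gene on that side, had 0 peaks. The nearest cWT-specific peak was 66.0 kb away. Between the flanking listed peaks 7 numbered cKO peaks and 25 numbered cWT peaks were unlisted, the cWT stretch being longer, since its far flank lay 1197 kb from the gene. Their positions within these stretches are not known, so the absence of a specific peak does not show closed chromatin. Neither list had a peak at 70.6% of all coding genes.

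Unlisted peaks also stood among the listed ones at the other genes. From the first to the last cKO-specific peak, 3 of 7 numbered peaks were listed at P2ry12, 4 of 8 at Entpd1, 4 of 9 at Gpr34 and 2 of 5 at P2ry6. For the cWT-specific peaks of P2ry12 it was 2 of 6. Across the genome 25.8% of numbered cKO peaks and 12.1% of numbered cWT peaks were listed, but the first and last peaks of such stretches are listed by construction, so nothing is read from the higher shares.

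By signal the 18 peaks lay on both sides of the middle of their lists. The median signal was 15.0 for the 14 cKO-specific peaks, beside 16.5 for the cKO list, and 13.2 for the 4 cWT-specific peaks, beside 13.7 for the cWT list. Of the cKO-specific peaks 6 lay above their list's median signal, and of the cWT-specific peaks 2 did. By score 6 of the 14 cKO-specific and all 4 cWT-specific peaks were at or above the median of their list. Authors' p-values ran from 0.137 to 0.944 in cKO and from 0.290 to 0.877 in cWT, with p-values up to 0.5 for 3 of 14 and 1 of 4. Over the whole lists 12.1% and 6.16% of peaks were within that limit. No adjusted p of these peaks fell below 0.847. The lowest deposited adjusted p of any peak was 0.194 in the whole cKO list and 0.231 in the whole cWT list. Widths ranged from 214 to 634 bp in cKO and from 221 to 420 bp in cWT.

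**Figure D4:**
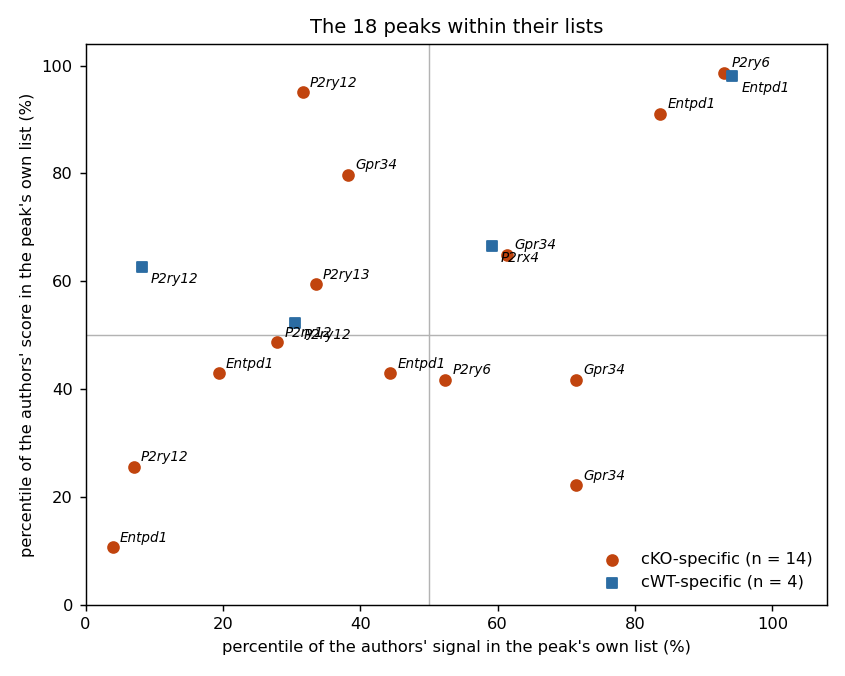
Each of the 18 peaks by the percentile of its signal (horizontal) and of its score (vertical) within its own list, with circles for cKO-specific and squares for cWT-specific peaks and grey lines at the middle of each list. A P2ry6 cKO-specific peak (93.0 and 98.7%) and the Entpd1 cWT-specific peak (94.1 and 98.1%) are at the upper right.

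The midpoints of all 18 peaks lay more than 1000 bp from the ends of coding genes. Of all cKO-specific peaks 13.7% had their midpoint within 1000 bp of a coding gene end, and of all cWT-specific peaks 15.9%. The distance from midpoint to gene end ran from 1006 bp at P2ry12 to 54112 bp at Entpd1 for cKO-specific peaks, with a median of 5455 bp, and from 5206 to 62219 bp for cWT-specific peaks. Inside the genes they were counted for were 8 of the 14 cKO-specific and 3 of the 4 cWT-specific peaks. Only 1 peak of each list was outside all coding genes.

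The other genes read were of nucleotide and adenosine signalling or, like P2ry10b and Enpp2, shared a family name with such genes. Their list held 39 genes, all annotated as coding. Of these, 20 (51.3%) had a peak of the cKO list and 7 (17.9%) one of the cWT list, beside the 23.8% and 12.3% of coding genes. Whether a gene is open in microglia was again not considered, so these shares do not separate genotype-specific chromatin from microglial chromatin in general. In all the 39 genes held 26 cKO-specific and 7 cWT-specific peaks. None had the 5 peaks needed for the balance test, so 0 were tested and 0 called in either direction. The most peaks were at Enpp1, an ectonucleotide pyrophosphatase gene, with 3 cKO-specific and 0 cWT-specific, and at Panx1, the gene of a channel that releases ATP, with 2 and 1.

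Genes downstream of CD39 were among them. Nt5e, which encodes the AMP-cleaving enzyme CD73, had 1 peak in each list, and its cWT-specific peak on chromosome 9 (88327361 to 88327763, signal 16.8, p-value 0.841) had its midpoint 47 bp from an end of Nt5e and overlapped that end. Ada, the adenosine deaminase gene, had 2 and 0, both with midpoints inside the gene. One of them (chromosome 2, 163749746 to 163750344, signal 22.5 and p-value 0.751) had its midpoint 194 bp from a gene end and crossed it. Adora2a, an adenosine receptor gene, had 1 and 1. P2ry2 and the ATP-gated channel gene P2rx3 had 2 and 0 each, one of the P2rx3 peaks being nearer to an end of Prg3. P2ry10b had 1 and 1, as had Kcnk13, the gene of the potassium channel THIK-1 of microglia. Of the remaining 30 genes, 11 had 1 cKO-specific peak, 2 had 1 cWT-specific peak and 17 had none.

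**Figure D5:**
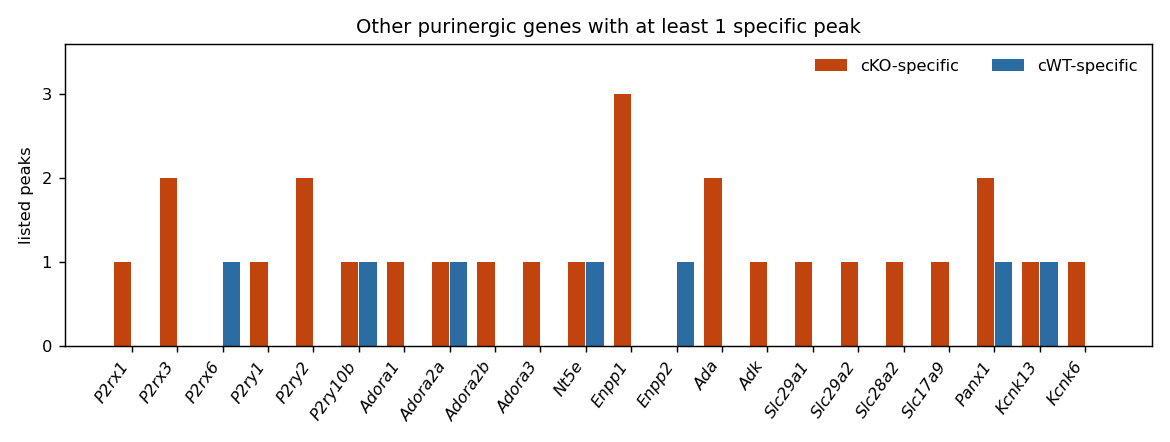
Number of listed peaks (vertical axis) at the 22 of 39 other purinergic genes that had any, cKO-specific on the left of each pair and cWT-specific on the right. Enpp1 has 3 cKO-specific peaks, and P2rx6 and Enpp2 have a cWT-specific peak only.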

How the data were processed

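The labels give 3 cKO and 3 cWT libraries, and the titles set the groups. The submitters' processing notes name the builds GRCm38 and mm10 and the tools HOMER 4.11, MACS2 2.2.7.1 and Bowtie2 2.4.4. The sources used here do not give the role of each tool, read shifting, the combining of replicates or the choice of specific peaks. The deposited lists have no header. Each peak has a deposited score, equal to -125 times log2 of its p-value, rounded down (checked for all 8615 cKO and 3490 cWT peaks), a deposited signal of unstated scale, and a deposited p-value and adjusted p-value whose test is not stated. Depth per library is unknown, and a deeper or cleaner genotype can have a longer list.

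Genes came from a RefSeq table of GRCm38.p6 (21887 coding genes, spans only) and starts from its promoter table. The 8 genes and all gene lists were chosen with earlier results of these data known. Named besides the 8 were listed purinergic genes with 2 or more peaks, genes spanning a peak and coding neighbours; P2rx6, Enpp2, Slc28a2 and the genes nearest flanking peaks were named after their values were seen, and not every neighbour is reported here. The balance of single genes was tested across all genes by an exact binomial test. Python 3.11.15, numpy 2.4.6, pandas 2.3.3, scipy 1.17.1 and matplotlib 3.10.9 were used.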

Additional observations from a re-analysis of the deposited data

How the results depend on the processing

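With a 10 kb limit, with all annotated genes or with peaks within 500 bp joined, the counts stayed within 1.5 times: 13 cKO-specific and 3 or 4 cWT-specific peaks at the 8 genes. With all annotated genes P2rx4 lost its cWT-specific peak, and each of these 3 settings left Gpr34 with 3 cKO-specific peaks. Inside a gene or within 2 kb of an end were 9 cKO-specific peaks, and the other purinergic genes with a cWT-specific peak fell to 4. Among peaks with the authors' p-value up to 0.5, 3 peaks of the cKO list and 1 of the cWT list were left, at 3 and 1 of the 8 genes, and 1 and 0 of the other purinergic genes had one. Among primary peaks 1 cKO-specific (P2ry6) and 0 cWT-specific were left, at 1 and 0 of the 8 genes and at 1 and 0 of the others. At or above the median score of the list there were 6 cKO-specific peaks at the 8 genes, and 12 and 4 of the other purinergic genes had a peak. The balance test called 0 genes under each setting run, also with a minimum of 3 peaks (1169 genes, 29 with an unadjusted p under 0.05). It covered 114 genes with all annotated genes, 50 at or above the median score and 1 at p-values up to 0.5. None of the 8 genes was tested in the last 2 of these settings. Among primary peaks no gene had 5. With so few peaks per gene a call was hardly possible, so these 0 calls are not read as stability. No paired analysis was possible because each list pools its libraries, and for the same reason no library could be left out.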

Other observations

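The strongest listed peak among the other purinergic genes was assigned to Slc28a2, the gene of a sodium-dependent nucleoside transporter. This cKO-specific peak (chromosome 2, 122468088 to 122468206) was 119 bp wide and intergenic, its midpoint 6995 bp from an end of the gene. Its signal of 44.1 exceeded 99.6% of the cKO list, at a p-value of 0.0557 and an adjusted p of 0.581. The other peaks of these genes had signals up to 24.7 and p-values of 0.554 or more. It was chosen after its values were seen.

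At P2ry10b, a gene of the P2Y receptor family on chromosome X, a cKO-specific peak (107143994 to 107144234, signal 20.5) and a cWT-specific peak (107143276 to 107143439, signal 16.5) lay 554 bp apart, with midpoints 4813 and 5569 bp from an end of the gene. Among the 8 genes described above the lists came no closer than 5.03 kb. Gaps between the lists over all listed peaks are not given here, so nothing is read from this contrast.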
